A study of Mus musculus with 8 samples.

Results

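Collagens are the proteins of the extracellular matrix that are built from 3 alpha chains wound into a triple helix, and each alpha chain has a gene of its own. The collagen chains were taken as every gene whose symbol has the form Col, a number, a and a number. This rule found 44 of the 26263 genes counted, and it did not use their values. RNA-seq of polyadenylated RNA was performed on embryonic stem cells (ESCs) and on neural precursor cells (NPCs) obtained after 12 days of *in vitro* corticogenesis, with 2 replicates in each of 4 groups. The cells were male F1 hybrids of C57BL/6 and JF1 mice. The B/J line (BJE2) and the J/B line (JBE6) come from the reciprocal crosses, and each cross is represented by 1 line, so that cross and line cannot be told apart. ESCs were grown on gelatin in a medium with LIF, BMP4 and a GSK3-β inhibitor. NPCs were grown on Matrigel, a basement membrane extract, with a supplement lacking vitamin A and an inhibitor of BMP signalling (dorsomorphin homolog 1). The design allows NPCs to be compared with ESCs, in both lines and within each, and J/B to be compared with B/J at each stage.

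Fibrillar collagens (types I, II, III, V, XI, XXIV and XXVII) assemble into the banded fibrils of connective tissue and cartilage, and their most abundant chains are typical products of fibroblasts and of other mesenchymal cells. Type IV collagen forms the sheet-like network of basement membranes, which underlie epithelia and surround the developing neural tube and its vessels. The other types decorate fibrils, form beaded filaments or hexagonal lattices, span the plasma membrane or anchor basement membranes. Chains of one type usually have to be made together, since many collagens are heterotrimers.

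Between 22537138 and 32706015 reads were counted on genes per library. The level of a gene is given as CPM, which scales its counts to the library's total after correction by the TMM factors of edgeR, and n is 4 libraries per stage unless stated. The 8 pluripotency markers listed all fell in NPCs, whereas 8 of 10 neural precursor markers rose (*Nes* log2 fold change 2.09, edgeR adjusted p = 0.00194), *Sox2* fell and *Pax6* stood at 8.23 ± 7.01 CPM before and 30.1 ± 17.2 CPM after corticogenesis (SD, n = 4, edgeR adjusted p = 0.0606). Over all 16399 genes tested, 6145 were higher and 5233 lower in NPCs. With library totals these counts were 8016 and 3421, and when 3 housekeeping genes (*Gapdh*, *Gusb*, *Tbp*) set the scale they were 8469 and 2824. The median gene moved by 0.17, 0.65 and 0.80 on the log2 scale with the 3 scalings, and the median collagen chain stood 5.04, 5.04 and 5.03 above it. Nothing in the labels says that the replicates are separate cultures, so the p-values measure the spread between these libraries. The tests take the 4 libraries of a stage as independent, whereas same-numbered libraries of both lines deviated together within a stage, which can make p-values of the stage comparison too small.

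Collagen mRNA was far more abundant in NPCs than in ESCs. The 44 chains together took 0.0221% and 0.0243% of the reads counted on genes in the B/J ESC libraries and 0.0408% and 0.0311% in the J/B ESC libraries. In NPCs the shares were 0.605% and 0.534% (B/J) and 0.534% and 0.723% (J/B). The groups did not overlap, and the mean share was 20.2-fold higher in NPCs (0.599% ± 0.0890 against 0.0296% ± 0.00839, SD, n = 4). On the TMM scale, which puts NPC libraries on a larger effective size, the sums were 5070 ± 716 CPM in NPCs and 349 ± 100 CPM in ESCs, a ratio of 14.5. These are bulk cultures, in which more cells of a collagen-producing type and more RNA per cell cannot be told apart.

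Of the 44 chains, 39 had enough counts to be tested, and 32 of these were higher and 1 lower in NPCs (quasi-likelihood test of edgeR, p adjusted by Benjamini-Hochberg over all genes, threshold 0.05). Among all genes tested, 37.5% were higher and 31.9% lower. The median log2 fold change of the 39 chains was 5.21, against 0.17 over all genes tested. Within B/J, 31 chains were higher and 0 lower (30.1% and 25.6% of all genes) by edgeR. The 1 chain with a negative change there at an unadjusted p under 0.05 was *Col6a5* at -3.57 (edgeR adjusted p = 0.0673), and by DESeq2 1 chain was lower. Within J/B, 28 were higher and 1 lower (29.1% and 25.3% of all genes). For 34 of the 44 chains, 31 of them tested, the lowest NPC library lay above the highest ESC library, which held for 35.3% of all genes tested. The chains that did not pass the test were *Col5a3*, *Col6a6*, *Col7a1*, *Col9a2*, *Col13a1* and *Col17a1*, and *Col4a3*, *Col4a4*, *Col6a4*, *Col10a1* and *Col28a1* had too few counts.

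**Figure D1:**
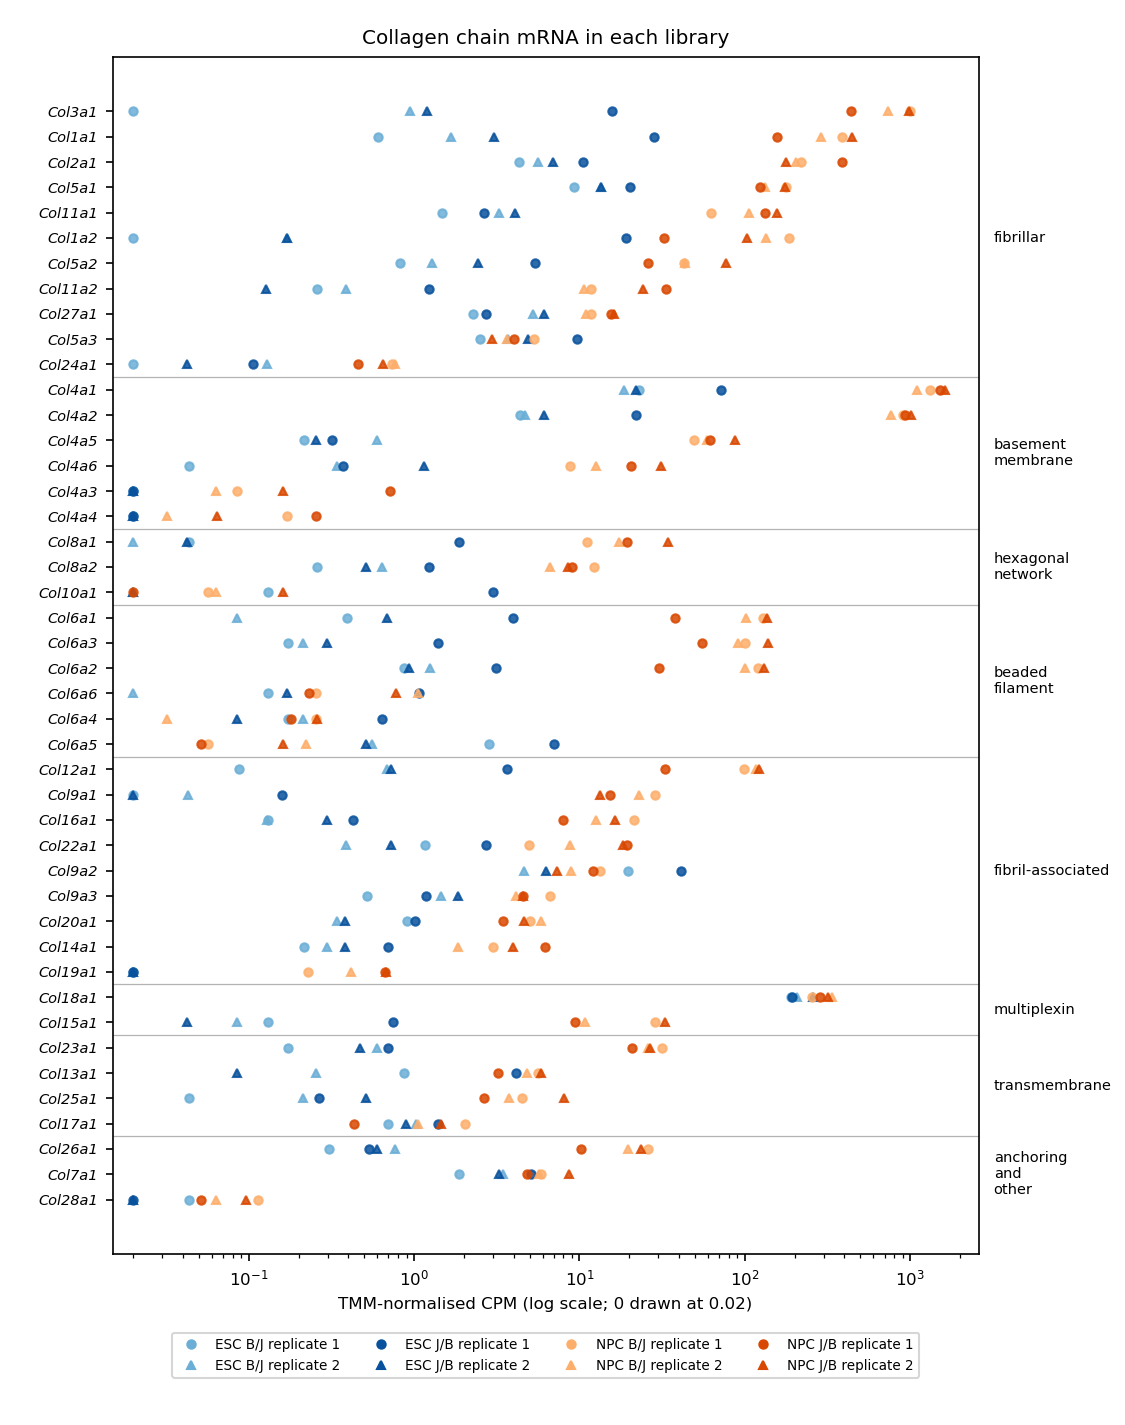
TMM-normalised CPM of the 44 collagen chains (rows, grouped by structural class) in each of the 8 libraries on a log axis, with ESCs in blue and NPCs in orange, circles for replicate 1 and triangles for replicate 2, and values of 0 drawn at 0.02. In most rows the orange points lie to the right of the blue ones, *Col18a1* is the one chain above 100 CPM in ESCs, at 189 to 260.1, and the dark blue circle (ESC J/B replicate 1) is often the rightmost ESC point.

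The make-up of the collagen mRNA also differed between the stages. In ESCs most collagen reads came from one gene, *Col18a1*, a multiplexin of basement membranes whose C-terminal fragment is endostatin. It took 39.5% to 73.9% of collagen reads in ESC libraries and 4.82% to 7.48% in NPC libraries. In NPCs the basement membrane network chains took 43.1% and 43.0% (B/J) and 56.5% and 46.1% (J/B), up from 8.42% to 19.2% in ESCs. The fibrillar chains took 39.7% and 36.9% in B/J NPCs and 30.2% and 36.1% in J/B NPCs, against 7.97% to 23.6% in ESCs. The beaded filament chains took between 2.77% and 6.78% of collagen reads in NPCs and between 0.763% and 3.51% in ESCs. J/B replicate 1 held the lowest multiplexin share of the ESC libraries, 39.7%, and the highest fibrillar share, 23.6%.

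Levels of different genes were compared per kb of the annotated canonical transcript. In NPCs the order on the scale of CPM per kb began with *Col4a1* at 211 ± 34.7, *Col3a1* at 142 ± 47.3 and *Col4a2* at 134 ± 14.8 (SD, n = 4). *Col3a1* and *Col4a2* did not differ beyond their spread. *Col1a1* at 53.9 ± 21.3, *Col18a1* at 53.6 ± 6.55 and *Col2a1* at 47.2 ± 18.4 CPM per kb followed and could not be ordered. In ESCs *Col18a1* led at 38.0 ± 5.82 CPM per kb. *Col9a2* followed at 6.11 ± 5.73 and *Col4a1* at 5.10 ± 3.81, with overlapping spreads, and no other chain exceeded *Col5a1* at 1.67 ± 0.534 CPM per kb.

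**Figure D2:**
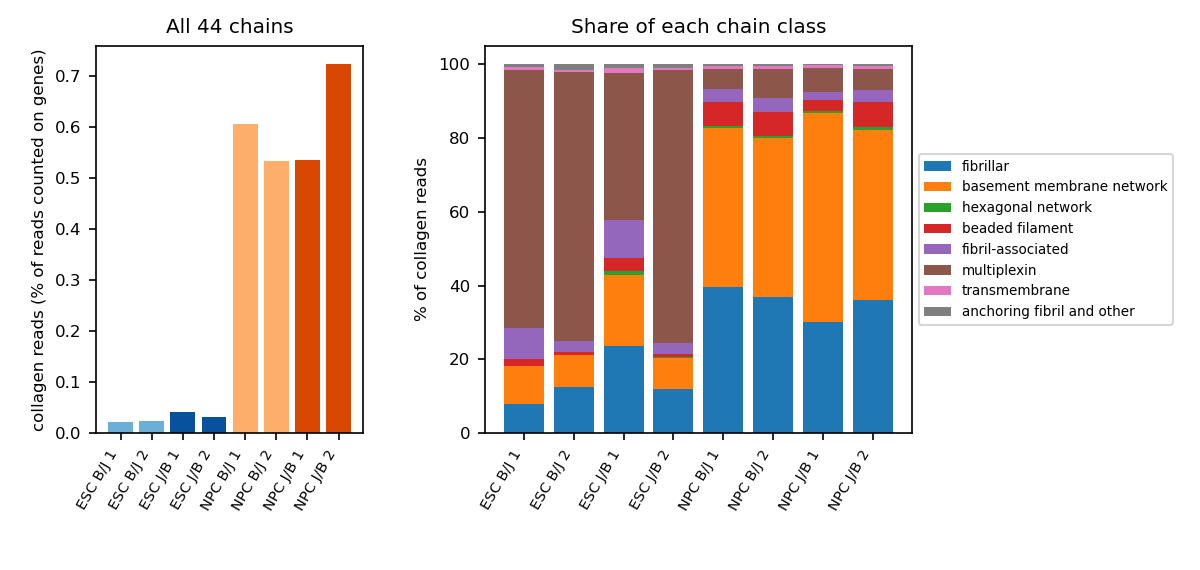
Left, reads on all 44 collagen chains as a percentage of the reads counted on genes in each library, from 0.0221% to 0.0408% in ESCs and from 0.534% to 0.723% in NPCs. Right, share of each structural class among collagen reads in the same libraries, where the multiplexins (mostly *Col18a1*) are the tallest segment in ESCs and the network and fibrillar chains in NPCs.

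Of the 11 fibrillar chains, 10 were higher in NPCs, by 1.71 to 8.61 on the log2 scale, 0 were lower and *Col5a3* was not called. The counts of this and the other classes stand against 37.5% higher and 31.9% lower of all genes tested. *Col3a1* (chr1:45350698-45395840, GRCm39), the single chain of type III collagen of soft connective tissue and vessels, was read at 0 and 0.941 CPM in B/J ESCs and 15.8 and 1.19 CPM in J/B ESCs. It was read at 1001 and 735 CPM in B/J NPCs and 438 and 981 CPM in J/B NPCs. The groups were far apart, although J/B replicate 1 was the highest of the ESC and the lowest of the NPC libraries. The log2 fold change was 8.61 (SE 1.02, edgeR adjusted p = 0.000209). Leaving out ESC J/B replicate 1 gave 10.02 and leaving out ESC B/J replicate 2 gave 12.01, both still called, on 347 counts over the ESC libraries.

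Type I collagen, the main fibril of bone, skin and tendon, is a heterotrimer of the chains of *Col1a1* and *Col1a2*. *Col1a1* (chr11:94827050-94843868) was read at 0.608 and 1.67 CPM in B/J ESCs, 28.2 and 3.03 CPM in J/B ESCs, 387 and 289 CPM in B/J NPCs and 157 and 446 CPM in J/B NPCs. *Col1a2* (chr6:4504814-4541555) was read at 0 and 0.171 CPM in B/J ESCs, 19.2 and 0.171 CPM in J/B ESCs, 184 and 135 CPM in B/J NPCs and 32.7 and 103 CPM in J/B NPCs. ESC J/B replicate 1 again stood above the other ESC libraries for both genes, and the stages did not overlap. The log2 fold changes were 6.24 for *Col1a1* (SE 0.80, edgeR adjusted p = 0.000304) and 6.80 for *Col1a2* (SE 1.28, edgeR adjusted p = 0.0021). Without ESC J/B replicate 1 they were 7.42 and 9.69, and without ESC B/J replicate 2 that of *Col1a2* was 9.0. Within J/B the change of *Col1a2* was 2.82 (edgeR adjusted p = 0.11) and within B/J 10.78 (edgeR adjusted p = 0.00454), and the test of this difference itself did not pass (interaction -7.96, edgeR adjusted p = 1.0).

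The sequences upstream of the starts are shown for *Col3a1* and *Col1a2*, since both are fibrillar chains that were at or under 1.19 CPM in every ESC library except J/B replicate 1, and *Col1a1* has no entry in the table used. RefSeq (GRCm38.p6) gave an entry for 35 of the 44 chains, each of which was placed on GRCm39 by an exact match and stripped of bases inside annotated exons. Capitals mark the CCAAT box (searched as CCAAT), the TATA box (TATAAA) and the GC box (GGGCGG), each searched on both strands, and in the sequences shown no match overlaps another. The *Col3a1* window is chr1:45350448-45350697 on the plus strand and that of *Col1a2* is chr6:4505370-4505492 on the plus strand, written 5′ to 3′.
Col3a1: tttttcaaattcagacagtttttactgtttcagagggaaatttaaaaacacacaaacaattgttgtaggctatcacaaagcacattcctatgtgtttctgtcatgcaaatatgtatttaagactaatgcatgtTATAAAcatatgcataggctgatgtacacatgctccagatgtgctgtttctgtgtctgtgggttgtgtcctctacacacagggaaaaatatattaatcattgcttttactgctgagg
Col1a2: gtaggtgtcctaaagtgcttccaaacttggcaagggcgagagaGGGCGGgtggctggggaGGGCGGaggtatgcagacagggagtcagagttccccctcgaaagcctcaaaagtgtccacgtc
The 250 bases before the start of *Col3a1* hold 1 TATA box and no GC box, and their GC content is 35.2%. The stretch of 123 bases of *Col1a2* holds 2 GC boxes and no TATA box, with a GC content of 59.3%. Over the 250 bases before the RefSeq starts, exons included, a GC box occurred in 21 of the 35 chains and in 32.7% of 32851 windows of the table, a CCAAT box in 12 chains and 33.8%, and a TATA box in 5 chains and 12.4%. Each chain gave 1 window, whereas the windows of the table were not reduced to 1 per gene. The boxes are matches of letters and no test was made of them.

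Type II collagen, the fibril of cartilage and of the embryonic notochord, is made from *Col2a1* (chr15:97873483-97902689). It was read at 4.34 and 5.60 CPM in B/J ESCs, 10.4 and 6.91 CPM in J/B ESCs, 217 and 203 CPM in B/J NPCs and 389 and 177 CPM in J/B NPCs. Unlike the chains of types I and III, *Col2a1* was highest in NPC J/B replicate 1. Its log2 fold change was 5.21 (SE 0.31, edgeR adjusted p = 1.79e-05). The type XI chains, which co-assemble with type II, rose as well. *Col11a1* (chr3:113824134-114014367) was read at 1.48 and 3.25 CPM in B/J ESCs, 2.67 and 4.05 CPM in J/B ESCs, 62.8 and 105 CPM in B/J NPCs and 133 and 156 CPM in J/B NPCs (log2 fold change 5.28, SE 0.33, edgeR adjusted p = 2.02e-05). *Col11a2* (chr17:34258108-34285664) was read at 0.260 and 0.385 CPM in B/J ESCs, 1.23 and 0.128 CPM in J/B ESCs, 11.8 and 10.7 CPM in B/J NPCs and 33.3 and 24.3 CPM in J/B NPCs (log2 fold change 5.27, SE 0.58, edgeR adjusted p = 0.000153, and 6.43 without ESC J/B replicate 1). Both type XI chains were higher in both J/B than in both B/J NPC libraries, but neither difference between crosses passed the test (0.78 and 1.36, both edgeR adjusted p = 0.77).

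The type V chains regulate the diameter of type I fibrils. *Col5a1* (chr2:27776397-27929526) was read at 9.24 and 13.5 CPM in B/J ESCs, 20.2 and 13.4 CPM in J/B ESCs, 178 and 132 CPM in B/J NPCs and 123 and 175 CPM in J/B NPCs (log2 fold change 3.46, SE 0.24, edgeR adjusted p = 2.63e-05). *Col5a2*, the neighbour of *Col3a1* on chromosome 1 with 16713 bases between the annotated genes, was read at 0.825 and 1.28 CPM in B/J ESCs, 5.38 and 2.43 CPM in J/B ESCs, 43.0 and 43.8 CPM in B/J NPCs and 26.0 and 76.5 CPM in J/B NPCs (log2 fold change 4.54, SE 0.45, edgeR adjusted p = 9.21e-05). Neither gene overlapped between the stages. *Col5a3* did not follow them. Its ESC libraries ran from 2.52 to 9.65 CPM and its NPC libraries from 2.97 to 5.30 CPM. The log2 fold change of -0.26 was not called (edgeR adjusted p = 0.515), and it was 0.22 with library totals. *Col27a1* and *Col24a1*, the chains of the minor fibrillar types, rose by 1.71 (edgeR adjusted p = 0.00387) and 3.16 (edgeR adjusted p = 0.00755), *Col24a1* from 6 counts over the ESC libraries to 88 over the NPC libraries and by 5.16 without ESC B/J replicate 2.

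All 4 tested chains of the basement membrane network rose, against 37.5% of all genes tested. *Col4a1* (chr8:11248423-11362826), whose product forms the common type IV trimer with that of *Col4a2*, was read at 22.8 and 18.6 CPM in B/J ESCs, 71.5 and 22.1 CPM in J/B ESCs, 1322 and 1105 CPM in B/J NPCs and 1517 and 1627 CPM in J/B NPCs. *Col4a2* (chr8:11362471-11499287) was read at 4.38 and 4.66 CPM in B/J ESCs, 22 and 6.10 CPM in J/B ESCs, 907 and 769 CPM in B/J NPCs and 926 and 1009 CPM in J/B NPCs. The NPC libraries lay close together, with a coefficient of variation of 16.5% for *Col4a1* and 11% for *Col4a2*. The log2 fold changes were 5.47 (SE 0.39, edgeR adjusted p = 2.91e-05) and 6.82 (SE 0.43, edgeR adjusted p = 2.05e-05, and 7.42 without ESC J/B replicate 1). These genes lie head to head, their annotated starts 317 bases apart with overlapping first exons, and 311 exonic bases of *Col4a1* (4.70% of its canonical transcript) are shared with *Col4a2* on the opposite strand. Whether reads were counted by strand is not stated in the labels or methods.

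*Col4a5* and *Col4a6*, which form a second type IV network, are a head-to-head pair on the X chromosome with starts 1282 bases apart. *Col4a5* (chrX:140258354-140472231) was read at 0.217 and 0.599 CPM in B/J ESCs, 0.320 and 0.256 CPM in J/B ESCs, 49.6 and 59.4 CPM in B/J NPCs and 61.6 and 86.9 CPM in J/B NPCs. Its log2 fold change of 7.52 (SE 0.33, edgeR adjusted p = 9.2e-06) had the lowest adjusted p of the 39 chains. *Col4a6* (chrX:139948399-140257072) was read at 0.0434 and 0.342 CPM in B/J ESCs, 0.373 and 1.15 CPM in J/B ESCs, 8.71 and 12.6 CPM in B/J NPCs and 20.5 and 31.2 CPM in J/B NPCs (log2 fold change 5.40, SE 0.56, edgeR adjusted p = 0.000112, and 6.43 without ESC B/J replicate 2). Both were higher in both J/B than in both B/J NPC libraries, with differences of 0.45 (edgeR adjusted p = 0.832) and 1.28 (edgeR adjusted p = 0.77) that did not pass the test. The interval between the starts is shown in part, as the bases just upstream of each gene, chrX:140258165-140258353 on the plus strand for *Col4a5* and chrX:140257073-140257322 on the minus strand for *Col4a6*, with capitals as above.
Col4a5: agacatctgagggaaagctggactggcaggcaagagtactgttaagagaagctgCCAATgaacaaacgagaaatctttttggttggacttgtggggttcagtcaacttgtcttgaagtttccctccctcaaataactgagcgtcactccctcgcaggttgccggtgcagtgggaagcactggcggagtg
Col4a6: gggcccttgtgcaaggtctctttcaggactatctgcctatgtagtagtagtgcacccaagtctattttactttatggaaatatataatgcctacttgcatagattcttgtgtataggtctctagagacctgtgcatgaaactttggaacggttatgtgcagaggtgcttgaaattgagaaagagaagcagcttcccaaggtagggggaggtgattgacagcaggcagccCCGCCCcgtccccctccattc
The first holds 1 CCAAT box and the second 1 GC box, and neither holds a TATA box. *Col4a3* and *Col4a4*, the chains of the network of kidney and lung basement membranes, had 0 counts in all 4 ESC libraries and 38 and 19 counts over the NPC libraries. Against a limit of 3 counts over the ESC libraries, and scaled for library size, the NPC counts were 8.23-fold and 4.11-fold higher. These ratios make no allowance for the error of the NPC counts. NPC J/B replicate 1 held 28 and 10 of the NPC counts, and without it the ratios were 3.03 and 2.73. These genes also overlap head to head.

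The chains that form the common type VI beaded filament, which links cells to fibrils, rose together. *Col6a1* (chr10:76543440-76562283) was read at 0.391 and 0.0855 CPM in B/J ESCs, 3.95 and 0.682 CPM in J/B ESCs, 128 and 101 CPM in B/J NPCs and 37.9 and 137 CPM in J/B NPCs. *Col6a2* (chr10:76429660-76459549) was read at 0.868 and 1.24 CPM in B/J ESCs, 3.15 and 0.938 CPM in J/B ESCs, 119.7 and 101 CPM in B/J NPCs and 30.5 and 129.8 CPM in J/B NPCs. *Col6a3* (chr1:90693645-90771780) was read at 0.174 and 0.214 CPM in B/J ESCs, 1.39 and 0.298 CPM in J/B ESCs, 100.2 and 91.1 CPM in B/J NPCs and 55.1 and 138 CPM in J/B NPCs. In all 3 genes J/B replicate 1 was the highest ESC and the lowest NPC library, and no ESC library reached an NPC library. The log2 fold changes were 7.08 for *Col6a1* (SE 0.74, edgeR adjusted p = 0.000119), 6.01 for *Col6a2* (SE 0.60, edgeR adjusted p = 9.82e-05) and 7.90 for *Col6a3* (SE 0.55, edgeR adjusted p = 2.75e-05). Leaving out ESC J/B replicate 1 gave 7.94 for *Col6a1* and 8.61 for *Col6a3*, leaving out ESC B/J replicate 1 gave 7.80 for *Col6a1*, and leaving out NPC J/B replicate 2 gave 6.48 for *Col6a1* and 5.31 for *Col6a2*.

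None of the alternative type VI chains, which lie side by side on chromosome 9 and can take the place of the third chain, was called higher. *Col6a5* (chr9:105733270-105837858) was the one chain that fell, from 2.82 and 0.556 CPM in B/J ESCs and 7.04 and 0.511 CPM in J/B ESCs to 0.0570 and 0.223 CPM in B/J NPCs and 0.0512 and 0.162 CPM in J/B NPCs. All ESC libraries lay above all NPC libraries, with replicate 1 higher than replicate 2 in both ESC lines. The log2 fold change was -4.35 (SE 1.05, edgeR adjusted p = 0.00697). Leaving out ESC J/B replicate 1 gave -2.92, and it was -3.54 without ESC B/J replicate 1 and -4.96 without NPC B/J replicate 2, with adjusted p values up to 0.0351 over these and the other settings. *Col6a6* had 27 counts over the ESC and 75 over the NPC libraries, a ratio of 1.80 with a 95% exact interval from 1.15 to 2.91. Its fitted log2 fold change was 1.48 (edgeR adjusted p = 0.21) and ran from 0.80 to 3.49 over the settings, in none of which it was called. *Col6a4* had 23 and 25 counts, a ratio of 0.706 with a 95% exact interval from 0.385 to 1.3, and both intervals cover counting error only. The bases upstream of *Col6a3* (chr1:90771781-90771943, minus strand) and *Col6a5* (chr9:105837859-105838092, minus strand) are shown as the sharpest contrast among chains of one type.
Col6a3: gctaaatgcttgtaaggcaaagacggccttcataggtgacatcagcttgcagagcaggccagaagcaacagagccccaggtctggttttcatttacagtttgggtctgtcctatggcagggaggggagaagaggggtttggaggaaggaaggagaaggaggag
Col6a5: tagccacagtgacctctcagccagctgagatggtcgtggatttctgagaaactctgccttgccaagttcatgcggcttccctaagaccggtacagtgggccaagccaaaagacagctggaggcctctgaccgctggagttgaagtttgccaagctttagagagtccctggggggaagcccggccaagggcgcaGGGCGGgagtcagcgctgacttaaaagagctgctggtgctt
The first holds none of the 3 motifs and the second 1 GC box.

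**Figure D3:**
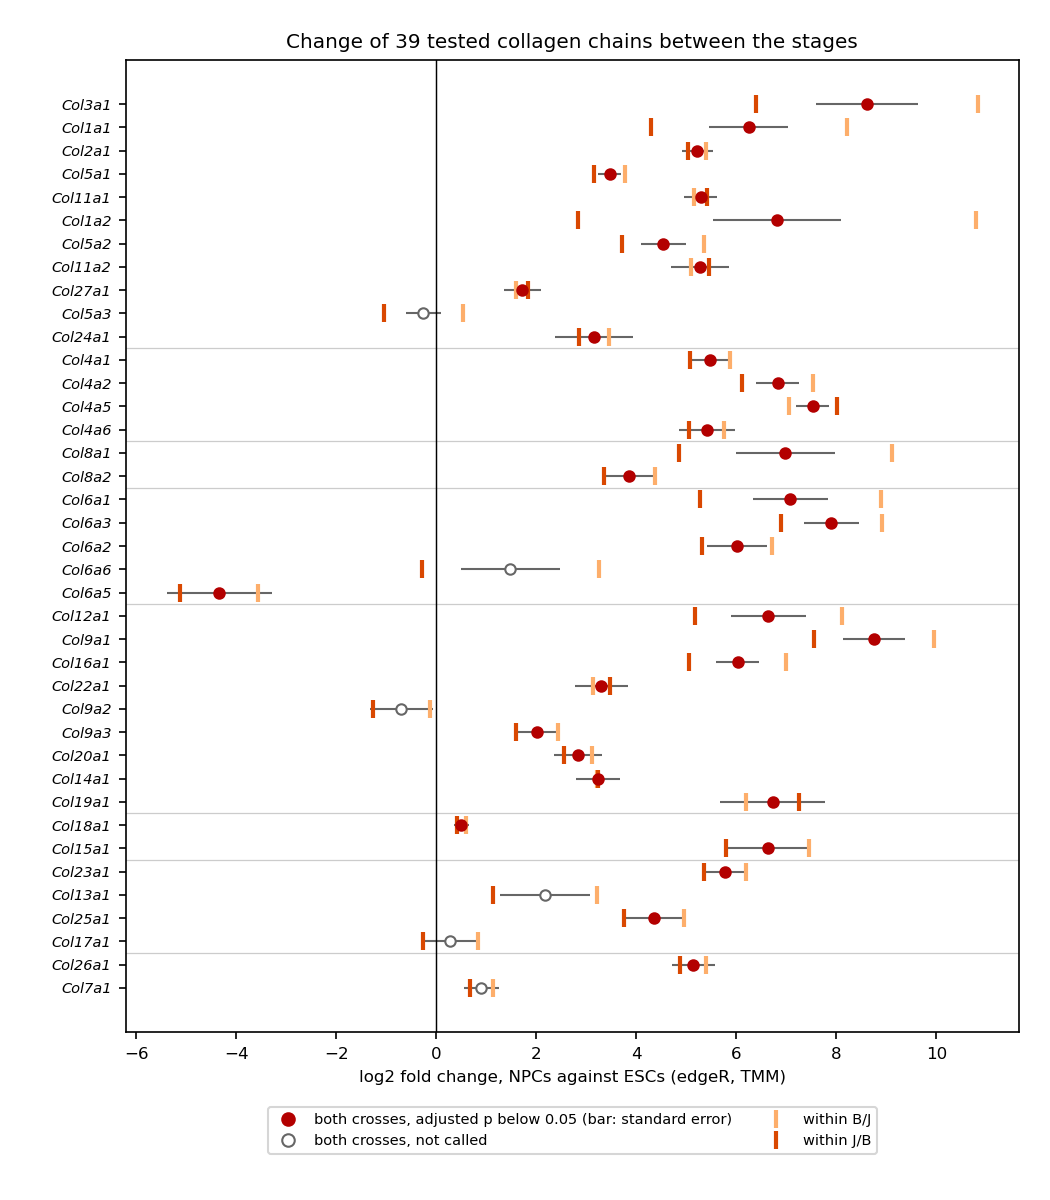
Log2 fold change in NPCs against ESCs of the 39 tested collagen chains (dots with standard error, filled where the adjusted p is below 0.05) with the changes within B/J and within J/B as vertical marks. Filled dots lie between 0.50 (*Col18a1*) and 8.75 (*Col9a1*) apart from *Col6a5* at -4.35, and the marks lie farthest apart for *Col1a2*, at 10.78 and 2.82.

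Of the 9 fibril-associated chains, which sit on the surface of fibrils, 8 rose and 1 was not called, against 37.5% higher of all genes tested. *Col12a1* (chr9:79506268-79626135), which binds type I fibrils, was read at 0.0868 and 0.684 CPM in B/J ESCs, 3.63 and 0.725 CPM in J/B ESCs, 98.5 and 117 CPM in B/J NPCs and 32.7 and 122 CPM in J/B NPCs. Its log2 fold change was 6.64 (SE 0.75, edgeR adjusted p = 0.000164). Leaving out ESC J/B replicate 1 gave 7.41, and it was 7.70 without ESC B/J replicate 2 and 6.03 without NPC J/B replicate 2. *Col16a1* rose by 6.03, *Col22a1* by 3.30, *Col14a1* by 3.23 and *Col20a1* by 2.83, with adjusted p values between 2.91e-05 and 0.00118 (edgeR). Without ESC J/B replicate 1 the change of *Col22a1* was 3.91. *Col19a1* had 0 counts in all ESC libraries and 68 over the NPC libraries (edgeR adjusted p = 0.0021). Against a limit of 3 counts over the ESC libraries this was 14.7-fold more, without allowance for the error of the NPC counts.

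The 3 chains of type IX collagen, a heterotrimer on type II fibrils of cartilage and in the vitreous, did not move together. *Col9a1* had a log2 fold change of 8.75 (SE 0.62, edgeR adjusted p = 2.91e-05), which cannot be ordered against the 8.61 of *Col3a1*. It was read at 0 and 0.0428 CPM in B/J ESCs, 0.160 and 0 CPM in J/B ESCs, 28.5 and 22.9 CPM in B/J NPCs and 15.3 and 13.4 CPM in J/B NPCs. Only 4 counts over all ESC libraries stand behind it, a counting ratio of 443 with a 95% exact interval from 173 to 1629, and the fitted change became 10.84 when ESC J/B replicate 1 was left out and 10.04 without ESC B/J replicate 2. *Col9a3* was read at 0.521 and 1.45 CPM in B/J ESCs, 1.17 and 1.83 CPM in J/B ESCs, 6.61 and 4.15 CPM in B/J NPCs and 4.58 and 4.55 CPM in J/B NPCs (log2 fold change 2.02, SE 0.42, edgeR adjusted p = 0.0035). Of its canonical transcript 15.9% is shared with *Tcfl5* on the opposite strand. *Col9a2* was read at 19.7 and 4.62 CPM in B/J ESCs, 40.9 and 6.27 CPM in J/B ESCs, 13.3 and 8.94 CPM in B/J NPCs and 12.1 and 7.33 CPM in J/B NPCs. In both ESC lines replicate 1 was far above replicate 2, so that the stages overlapped, and the log2 fold change of -0.71 was not called (SE 0.63, edgeR adjusted p = 0.344).

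The multiplexins are basement membrane proteoglycans. *Col18a1* (chr10:76888012-77002390) was read at 189 and 208 CPM in B/J ESCs, 194 and 260.1 CPM in J/B ESCs, 256 and 339 CPM in B/J NPCs and 286 and 319.5 CPM in J/B NPCs. The lowest NPC library lay under the highest ESC library. The log2 fold change was 0.50 (SE 0.15, edgeR adjusted p = 0.0198), which is 0.33 above the median gene. It did not pass the test without ESC B/J replicate 1 (0.47, adjusted p = 0.0685), ESC J/B replicate 1 (0.40, 0.0627), NPC B/J replicate 2 (0.39, 0.073) or NPC J/B replicate 2 (0.46, 0.0592), all from edgeR. *Col15a1* (chr4:47207582-47313179) was read at 0.130 and 0.0855 CPM in B/J ESCs, 0.746 and 0.0426 CPM in J/B ESCs, 28.6 and 10.8 CPM in B/J NPCs and 9.39 and 32.8 CPM in J/B NPCs. Its log2 fold change was 6.63 (SE 0.85, edgeR adjusted p = 0.000307), and leaving out ESC J/B replicate 1 gave 8.13 and leaving out NPC J/B replicate 2 gave 6.04.

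The hexagonal network chains of type VIII, which are found in the matrix beneath corneal and vascular endothelium, both rose. *Col8a1* (chr16:57444621-57575100) was read at 0.0434 and 0 CPM in B/J ESCs, 1.87 and 0.0426 CPM in J/B ESCs, 11.1 and 17.5 CPM in B/J NPCs and 19.5 and 34.4 CPM in J/B NPCs (log2 fold change 6.98, SE 0.98, edgeR adjusted p = 0.0005). The fitted change became 9.14 when ESC J/B replicate 1 was left out and 8.28 without ESC B/J replicate 1. *Col8a2* rose by 3.86 (SE 0.46, edgeR adjusted p = 0.000217), from 0.660 ± 0.409 to 9.10 ± 2.31 CPM (SD, n = 4). *Col10a1*, the chain of hypertrophic cartilage, had 59 counts over the ESC libraries, 56 of them in J/B replicate 1, and 9 over the NPC libraries, and 20.8% of its transcript is shared with *Nt5dc1* on the opposite strand.

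Of the 4 transmembrane chains, *Col23a1* and *Col25a1* rose, and *Col13a1* and *Col17a1* were not called, where 37.5% of all genes tested were higher. *Col23a1* (chr11:51180566-51474745) was read at 0.174 and 0.599 CPM in B/J ESCs, 0.693 and 0.469 CPM in J/B ESCs, 31.5 and 25.9 CPM in B/J NPCs and 20.7 and 26.6 CPM in J/B NPCs (log2 fold change 5.77, SE 0.38, edgeR adjusted p = 2.29e-05). *Col25a1*, which is known from neurons, rose by 4.35 (SE 0.61, edgeR adjusted p = 0.000465), from 0.259 ± 0.194 to 4.74 ± 2.33 CPM, and by 5.09 without ESC B/J replicate 2. *Col13a1* had a log2 fold change of 2.17 (edgeR adjusted p = 0.0617), which passed the test without ESC J/B replicate 1 at 4.43 (adjusted p = 0.00105) and by DESeq2 at 2.18 (adjusted p = 0.0196). *Col17a1*, the hemidesmosome collagen of stratified epithelia, had 1.0 ± 0.291 CPM in ESC and 1.24 ± 0.668 CPM in NPC libraries. Of the remaining chains, *Col26a1* rose by 5.14 (SE 0.43, edgeR adjusted p = 4.95e-05), from 0.551 ± 0.193 to 19.8 ± 6.89 CPM. *Col7a1*, the anchoring fibril of skin, had a log2 fold change of 0.90 (edgeR adjusted p = 0.0504), which passed by DESeq2 (adjusted p = 0.0252) and limma-voom (adjusted p = 0.0461). *Col28a1* had 1 count over the ESC and 11 over the NPC libraries.

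Chains of one collagen type, and the neighbours *Col3a1* and *Col5a2*, were compared within each library as the ratio of their CPM per kb, which needs no scaling between libraries. Of 12 pairs, 3 had at least 10 counts of both chains in every library and were tested by exact permutation of the 4 ESC and 4 NPC libraries (two-sided), for which the smallest possible p is 0.0286, with Benjamini-Hochberg adjustment over these 3 pairs. The *Col4a1*:*Col4a2* ratio was 5.30 and 4.08 in B/J ESCs, 3.31 and 3.70 in J/B ESCs, 1.49 and 1.47 in B/J NPCs and 1.67 and 1.64 in J/B NPCs. It was lower in all 4 NPC libraries, by 1.37 on the log2 scale (exact permutation p = 0.0286, adjusted 0.0429). The *Col9a2*:*Col9a3* ratio was 36.9 and 3.09 in B/J ESCs, 33.9 and 3.33 in J/B ESCs, 1.96 and 2.1 in B/J NPCs and 2.57 and 1.57 in J/B NPCs. It was lower in all NPC libraries as well (log2 difference -2.40, exact permutation p = 0.0286, adjusted 0.0429), the ESC values being 33.9 and 36.9 in the replicate 1 libraries and 3.09 and 3.33 in the replicate 2 libraries. The *Col5a1*:*Col5a2* ratio ran from 3.35 to 10.02 in ESCs and from 2.05 to 4.24 in NPCs, with overlap (log2 difference -1.04, exact permutation p = 0.0857). These tests take the 4 libraries of a stage as independent, whereas same-numbered libraries of the 2 lines deviated together within a stage. With the replicate numbers as the units there would be 2 per stage, too few for such a test to pass the threshold.

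Ratios of the other 9 pairs are given for NPCs without a test, since a chain had too few counts in ESCs. *Col1a1*:*Col1a2* was 1.90 and 1.93 for the B/J libraries and 4.34 and 3.91 for the J/B libraries, where the protein trimer holds a pair of the first chain for each of the second. *Col6a1*:*Col6a2* lay between 1.47 and 1.81, *Col6a1*:*Col6a3* between 1.53 and 2.85, *Col11a1*:*Col11a2* between 3.29 and 8.13 and *Col8a1*:*Col8a2* between 0.778 and 3.43. *Col4a5*:*Col4a6* was 5.77 and 4.76 for the B/J libraries and 3.04 and 2.82 for the J/B libraries. *Col9a1*:*Col9a2* lay between 0.966 and 1.96, and *Col3a1*:*Col5a2*, the neighbours on chromosome 1, between 17.4 and 31.6. *Col4a3*:*Col4a4* ran from 0.604 to 3.38 on as few as 1 count per library.

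**Figure D4:**
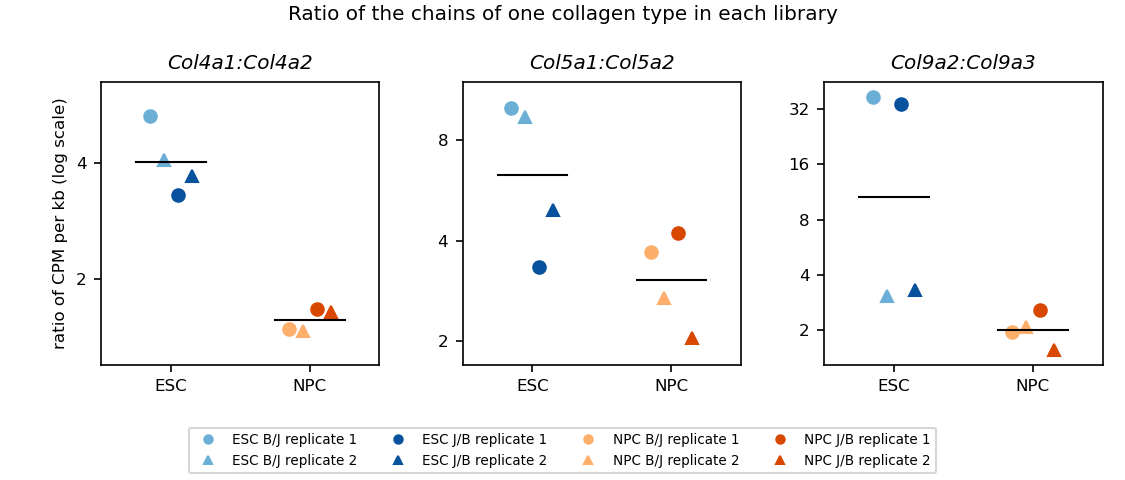
Ratio of CPM per kb of *Col4a1* to *Col4a2*, *Col5a1* to *Col5a2* and *Col9a2* to *Col9a3* in each library on a log axis, with the geometric mean of each stage as a line. The *Col4a1*:*Col4a2* ratio ranges over 3.31 to 5.30 in ESCs and over 1.47 to 1.67 in NPCs, and the *Col9a2*:*Col9a3* ratio in ESCs splits by replicate number.

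Between the reciprocal lines no collagen chain differed by the test. In ESCs 0 of 39 chains were called between J/B and B/J by edgeR, as were 0% of all genes. At an unadjusted p under 0.05 there were 10 chains by edgeR, against 346 of all 16399 genes, 12 (389 genes) by DESeq2, 0 (188 genes) by limma-voom, and 4 of 25 tested (154 of 13814 genes) when only the ESC libraries were fitted. In NPCs 0 chains were called, against 0.0061% of all genes, and the unadjusted counts were 0 chains and 1050 genes by edgeR, 4 chains and 1278 genes by DESeq2, 6 and 1599 by limma-voom, and 5 of 38 chains and 1146 of 15933 genes with only the NPC libraries fitted. The interaction of stage and cross was called for 0 chains and 0% of all genes, and the unadjusted counts were 5 chains and 573 genes by edgeR, 8 chains and 707 genes by DESeq2 and 0 and 397 by limma-voom. With the replicate number as a block the interaction gave 1 chain and 916 genes, and with no filter on low counts 1 of 44 chains and 653 of 21933 genes. In a limma-voom fit chosen after seeing the data, in which same-numbered libraries of a stage were correlated, the unadjusted counts were 5 chains and 742 genes in ESCs, 11 and 3859 in NPCs and 2 and 1568 for the interaction. DESeq2 and both limma-voom fits called 0 chains in each of these comparisons, where DESeq2 called 2 genes higher and 8 lower in ESCs, 26 and 44 in NPCs and 3 and 8 for the interaction. Limma-voom called 0 and 0, 0 and 1, and 0 and 0 genes, and with correlated libraries 0 and 3, 3 and 14, and 0 and 0. The 5 chains of the edgeR interaction were *Col1a1*, *Col1a2*, *Col3a1*, *Col6a1* and *Col16a1*. A fit with 1 library left out holds a single library in that group and takes the spread from the other groups, which limits the counts that follow. With 1 library left out the number of chains with an unadjusted p under 0.05 ran from 2 to 17 between the ESC lines, from 0 to 4 between the NPC lines and from 1 to 13 for the interaction. Both lower ends for ESCs and the interaction were reached without ESC J/B replicate 1 (2 and 1 of 40 chains, 248 and 436 of 17037 genes) and both upper ends without ESC J/B replicate 2 (17 and 13 of 42 chains, 1293 and 1325 of 17225 genes). Leaving out ESC B/J replicate 1 also gave 2 chains between the ESC lines (211 of 17211 genes) and 2 for the interaction (407 genes).

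Individual libraries stood apart within their stage. Among the 39 tested chains, ESC J/B replicate 1 was the highest ESC library for 29 and the lowest for 0, whereas it was the highest for 30.0% of all genes tested. ESC B/J replicate 1 was the lowest for 27 chains and for 27.1% of all genes. Where it tied with other ESC libraries, as for *Col19a1* and *Col9a1*, the tie was given to B/J replicate 1 in both counts. In NPCs, J/B replicate 1 was the lowest for 21 chains and for 24.2% of all genes. It was at 0.232 times the mean of the other NPC libraries for *Col1a2*, 0.261 for *Col6a2*, 0.291 for *Col12a1*, 0.310 for *Col6a1*, 0.420 for *Col1a1*, 0.484 for *Col3a1* and 0.760 for *Col5a1*, and was the lowest NPC library for each of these. It stood at 1.12 times that mean for *Col4a1*, 1.03 for *Col4a2*, 1.95 for *Col2a1* and 2.14 for *Col11a2*. Without it, 33 chains were higher and 1 lower in NPCs of 41 tested (5704 and 4851 of 17096 genes), and without ESC J/B replicate 1 it was 34 and 1 of 40 (6060 and 4915 of 17037 genes).

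**Figure D5:**
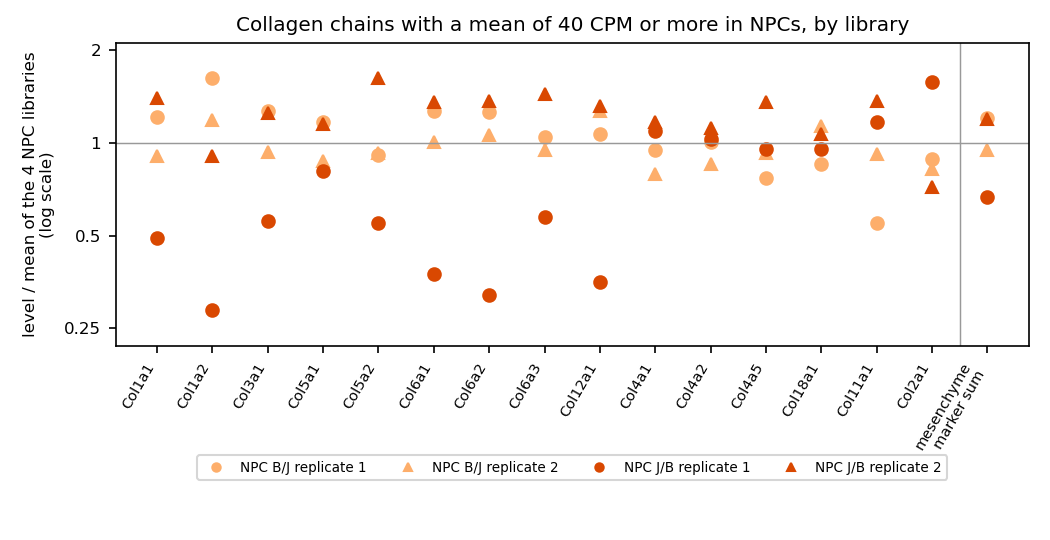
Level of the 15 collagen chains with a mean of 40 CPM or more in NPCs, and of the summed mesenchyme and fibroblast markers, in each NPC library relative to the mean of the 4 NPC libraries (log axis). NPC J/B replicate 1 (dark circles) is lowest for the plotted type I, III, V, VI and XII chains and the marker sum and highest for *Col2a1*, and the *Col4a2* points lie close to 1 (coefficient of variation 11%).

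Markers of other cell types also differed between the stages, and their counts stand against 37.5% higher and 31.9% lower of all genes tested. Of 14 mesenchyme and fibroblast markers that are no collagens, 13 were higher in NPCs and *Thy1* was not called. Their summed level ran from 15.2 to 29.5 CPM in ESCs, highest in J/B replicate 1, and in NPCs was 572 and 451 CPM (B/J) and 316 and 566 CPM (J/B), lowest in J/B replicate 1. *Pdgfra* stood at 91.0 ± 34.2 CPM in NPCs, *Foxc1* at 71.9 ± 20.6 CPM and *Prrx1* at 49.9 ± 18.2 CPM. Of 10 trophoblast markers 9 were higher, with summed levels from 62.6 to 201 CPM in ESCs and 1238 to 3479 CPM in NPCs, and *Tpbpa* and *Pappa2* were at 0 in all ESC libraries and at 232 ± 116 and 203 ± 60.4 CPM in NPCs. Of 12 parietal and primitive endoderm markers, 10 were higher and 1 lower (334 to 388 CPM summed in ESCs, 659 to 862 CPM in NPCs). Of 8 endothelial markers 5 were higher and *Pecam1* lower (45.8 to 116 and 406 to 1072 CPM). In NPCs *Cdh5* made 210 to 772 CPM of that sum and *Flt1* 123 to 217 CPM, and in ESCs *Pecam1* made 34.7 to 102 CPM. Of 9 chondrocyte markers, 7 of them tested, 4 were higher (8.35 to 32.3 and 91.2 to 169 CPM), *Sox9* at 66.1 ± 13.8 CPM and *Acan* not called. Of 8 neuron markers, 6 were higher and 1 lower (330 to 460 and 307 to 1741 CPM), and the neural precursor list summed to 719 to 1111 CPM in ESCs and 593 to 1518 CPM in NPCs. Of that sum *Sox2* alone made 461 to 812 CPM in ESCs and 40.9 to 199.5 CPM in NPCs. The part of these cell types in the collagen levels was not tested.

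The genes that make, process and bind collagen were taken as 6 lists, whose counts stand against the same 37.5% higher and 31.9% lower of all genes tested. Of 15 genes of prolyl and lysyl hydroxylation and glycosylation, which modify the chains in the endoplasmic reticulum, 10 were higher and 2 lower in NPCs. The largest rises were those of the prolyl 3-hydroxylase *P3h2* (5.40), the prolyl 4-hydroxylase subunit *P4ha3* (4.31) and *P3h4* (3.25). *P4ha2* stood next to *P3h4* at 3.22, an order the standard errors do not settle. *P4ha1*, the main catalytic subunit of prolyl 4-hydroxylase, was read at 24.6 and 30.7 CPM in B/J ESCs, 21.9 and 26.5 CPM in J/B ESCs, 156 and 130.4 CPM in B/J NPCs and 109 and 121 CPM in J/B NPCs (log2 fold change 2.31, edgeR adjusted p = 2.13e-05). The lysyl hydroxylase *Plod2* rose by 1.06 (edgeR adjusted p = 0.00224). *Crtap* and *P3h1*, partners in one hydroxylation complex, were called lower at -0.52 and -0.46, and with library totals or housekeeping scaling 0 genes of the list were lower.

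Of 9 folding and secretion genes, 6 were higher and 1 lower. *Serpinh1*, the chaperone HSP47 that binds the triple helix, was read at 145 and 82.9 CPM in B/J ESCs, 177 and 93.6 CPM in J/B ESCs, 977 and 704 CPM in B/J NPCs and 677 and 777 CPM in J/B NPCs (log2 fold change 2.65, edgeR adjusted p = 0.000116). The transcription factor *Creb3l2*, which drives secretory pathway genes, and the chaperone *Fkbp10* rose by 2.63 and 2.37. *Mia2* was called lower at -0.55. With library totals or housekeeping scaling 0 genes of this list were lower. Of the propeptide processing genes, 4 were higher and 4 lower of 9 tested. *Tll2* and the procollagen C-proteinase *Bmp1* rose by 6.81 and 4.93, and *Adamts2*, a procollagen N-proteinase, by 2.70. *Tll2* was read among ESC libraries in J/B replicate 1 alone, at 0.107 CPM, so that its fitted change depends on the prior count. The meprin *Mep1b* fell by 7.89, and the C-proteinase enhancers *Pcolce2* and *Pcolce* fell by 5.47 and 1.6. *Mep1b* was highest in ESC J/B replicate 1, at 109 CPM against 5.99 to 14.9 CPM in the other ESC libraries.

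Of 7 cross-linking enzymes, 6 were higher and 0 lower. The transglutaminase *Tgm2* rose by 7.62 to 205 ± 83.4 CPM, and *Lox*, the lysyl oxidase that starts covalent cross-links, by 6.23 (edgeR adjusted p = 9.42e-05) to 11.4 ± 6.06 CPM from 0.187 ± 0.232 CPM. *Loxl2* rose by 4.22. Of 14 fibril-binding proteoglycans and glycoproteins, 13 of them tested, 11 were higher. *Lum*, *Ogn* and *Fmod*, small leucine-rich proteoglycans, were called higher by 10.75, 8.45 and 8.16, with *Prelp* at 8.09 next to *Fmod*, an order the standard errors do not settle. In ESCs they were near 0, *Ogn* and *Fmod* being read only in J/B replicate 1 at 0.0533 CPM, so that these fitted changes depend on the prior count. They stood at 76.9 ± 38.8, 4.93 ± 3.62 and 3.71 ± 2.38 CPM in NPCs. *Fn1*, fibronectin, was the 1 gene lower, at -0.39, and with library totals or housekeeping scaling 0 genes of this list were lower. Of 12 collagen receptors, 11 of them tested, 9 were higher and 0 lower, among them the integrin subunit *Itga11* (6.79), the type III collagen receptor *Adgrg1* (5.80), the discoidin receptors *Ddr2* (5.40, with 10.3 CPM in ESC J/B replicate 1 and at most 0.477 in the other ESC libraries) and *Ddr1* (3.28) and the integrin subunit *Itgb1* (1.51). The medians of the 6 lists were 1.71, 1.65, -0.37, 3.75, 6.51 and 3.2 in the order given, against 0.17 over all genes tested.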

How the data were processed

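The authors aligned paired reads to an mm39 genome masked at the strain polymorphisms with TopHat2 and deposited 1 table of counts per gene for each of 8 libraries. The submitters' processing notes also name HTSeq, DESeq2 and edgeR without a role. The counting program's version and its use of strand, and which library had which of the kits and instruments, are not stated in the labels or methods. Rows that name no gene were kept out of library sizes, unassigned reads (no feature) being 5.756% to 10.851% and ambiguous ones 0.355% to 0.554%.

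Counts were scaled with TMM and tested with edgeR 4.0.16 in R 4.3.3 (glmQLFit with robust estimation, glmQLFTest, filterByExpr with a minimum count of 10), with all 8 libraries in 1 model and Benjamini-Hochberg adjustment over 16399 genes. DESeq2 1.42.0 and limma 3.58.1 were alternatives. Chain ratios were tested with scipy 1.17.1. Positions and canonical transcript lengths came from GENCODE vM39 on GRCm39. Replicates differed by more than sampling noise, with a chi-square per degree of freedom between 60.3 and 84.7. Intervals cover counting error only.

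The members and gene lists were chosen with earlier results of these data known. Values in every library were given for chains with a mean of at least 20 CPM in either stage and for both chains of the ratio pairs tested, and of each pathway list up to 3 of the largest rises and falls among called genes with a mean of at least 1 CPM were named, with *Serpinh1*, *P4ha1*, *Plod2*, *Lox*, *Itgb1*, *Ddr1* and *Ddr2*. *Col4a6* and *Col6a5* among the lower chains, and the promoters shown, were chosen after their values were seen.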

Additional observations from a re-analysis of the deposited data

Results flagged for a closer look

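Each chain with at least 10 counts in a library of the stage was examined within the 4 ESC and the 4 NPC libraries for a library far from the other 3 (the gap to the nearest over the whole range, against Dixon's 95% critical value), and 13 of 77 such groups had one. Chance gives about 1 in 20 for normally distributed values, which low counts are not. Under the same rule and count minimum, 6.57% of all genes had such a library in ESCs and 5.71% in NPCs, against 12 of 37 chains in ESCs and 1 of 40 in NPCs, and ESC J/B replicate 1 stood far highest for 3.61% of all genes. In 12 of the 13 the library was ESC J/B replicate 1, which stood highest. For the fibrillar chains it was at 28.2 CPM for *Col1a1* (next ESC library 3.03), 19.2 for *Col1a2* (0.171) and 15.8 for *Col3a1* (1.19). For the basement membrane chains it was at 71.5 CPM for *Col4a1* (22.8) and 22 for *Col4a2* (6.10), and for *Col15a1* at 0.746 (0.130). For type VI it was at 3.95 CPM for *Col6a1* (0.682), 3.15 for *Col6a2* (1.24), 1.39 for *Col6a3* (0.298) and 1.07 for *Col6a6* (0.171). For the hexagonal network chains it was at 1.87 CPM for *Col8a1* (0.0434) and 2.99 for *Col10a1* (0.130). The remaining one was *Col4a3* at 0.716 CPM in NPC J/B replicate 1 (next NPC library 0.161). Among ESC libraries, J/B replicate 1 also held the highest summed level of mesenchyme markers (29.5 CPM against 15.2 to 20.9, with *Pdgfrb* at 11.4), of chondrocyte markers (32.3 against 8.35 to 12.4, with *Acan* at 25.4), of endothelial markers (116 against 45.8 to 77.2, with *Pecam1* at 102) and of parietal and primitive endoderm markers (388 against 334 to 346, with *Lamb1* at 351), but the lowest of trophoblast markers (62.6 against 104 to 201). In each list with a gene named, that gene made the largest part of this library's sum. Other members of the mesenchyme, endothelial and endoderm lists went both ways among the ESC libraries. *Pdgfra*, *Tie1* and *Dab2* were highest in J/B replicate 1, and *Twist1*, *Flt1* and *Fst* were lowest there. The part of these cell types in the collagen values was not tested.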

How the results depend on the processing

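Over the 17 alternatives to the comparison of NPCs with ESCs, between 31 and 34 chains were higher and 1 was lower, against 5238 to 8469 higher and 2824 to 5461 lower of all genes tested. The ratio of the summed shares of reads, 20.2, was 18.7 to 23.1 with 1 library left out, and on the TMM scale with all libraries it was 14.5. Within B/J, 4408 of all 16399 genes tested were lower by DESeq2, and 4175 of 15474 with only the libraries compared. Within J/B, 4158 of 16399 genes were lower by limma-voom. A fit with 1 library left out holds a single library in that group, which limits the chain counts given for such fits. The number of chains lower within B/J was 1 by DESeq2, 1 with only the libraries compared and 0 to 1 with 1 library left out. Within J/B it was 0 by limma-voom and 0 to 2 with 1 library left out, being 0 without ESC J/B replicate 1, NPC J/B replicate 1 or NPC J/B replicate 2 and 2 without ESC J/B replicate 2. The changes that turned in sign were not called in any of these fits: *Col5a3* was 0.22 with library totals, 0.36 with housekeeping scaling and -0.46 to 0.019 with 1 library left out, and *Col9a2* ran from -1.10 to 0.25 and *Col17a1* from -0.27 to 0.59 with 1 library left out. *Col7a1* was called in 10 and *Col13a1* in 8 of the alternatives. The cause was not tested. With the replicate number as a block, 34 chains were higher and 1 lower, and 6549 and 5461 of all genes. Same-numbered libraries deviated together between the lines within a stage (correlation over genes 0.518 in ESCs and 0.587 in NPCs) but not between the stages (0.0489 to 0.0915), so the numbers were not taken as pairs. A limma-voom fit chosen after seeing the data let same-numbered libraries of a stage correlate (estimate 0.548), and it called 33 chains higher and 1 lower, with 5374 and 4571 of all genes. The ESC levels rest on few reads for many chains, which limits the precision of the largest fold changes.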
